A study of Mus musculus with 15 samples.

Results

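The immunity-related GTPases (IRGs) are a family of large GTPases that interferons switch on, and 6 of its genes are described here: Irgm1, Irgm2, Igtp, Iigp1, Tgtp1 and Tgtp2. They were chosen by name, as the rows of the deposited count table whose gene name equals one of these symbols, and all 6 were found among 53465 genes. All 6 also passed the filter on low counts that left 16617 genes for testing.

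The libraries come from mouse tumours grown from LLC1, a Lewis lung carcinoma line. One tumour type is labelled wild type (WT). The other grew from the guide-edited line LLC1-sgLkb1, labelled as a knockdown of LKB1 (KD), the kinase encoded by Stk11. WT and KD tumours received an immune checkpoint inhibitor alone (ICI) or radiation together with the inhibitor (RI), in 4 groups of 3 libraries, and 3 more KD libraries received radiation alone (RT). The labels name a treatment for each group, and for no WT library is that radiation alone. The labels do not name the inhibitor, the radiation dose, the mouse strain or the age. Each library is RNA of a whole tumour and holds host cells beside carcinoma cells, so fewer cells of a type and less RNA per cell cannot be told apart.

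IRG proteins are made when interferon-gamma binds its receptor, the receptor's kinases Jak1 and Jak2 are switched on, and transcription factors such as Irf1 then act on the promoters of interferon-induced genes. The proteins are best known for cell-autonomous defence, in which they assemble on and disrupt the membrane around intracellular parasites such as Toxoplasma gondii. Irgm1, Irgm2 and Igtp (also called Irgm3) are the regulatory members, which sit on the cell's own membranes and keep the other members inactive there. Iigp1 (also called Irga6), Tgtp1 and Tgtp2 (the Irgb6 pair) are effectors, which load onto the parasite's vacuole. Carcinoma cells and host cells alike can make them in response to interferon-gamma.

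The promoters of 5 members are shown because they hold motifs of the kinds through which interferons act. That of Iigp1 was not analysed here. Sequences are from RefSeq (GRCm38.p6), in the sense of the gene, and positions are counted from 0 at the RefSeq start site. Capitals mark matches to the core of an interferon-stimulated response element (ISRE), which is GAAA, any 2 bases and GAAA again, and to TTCNNNGAA, the core of an interferon-gamma activated site (GAS). Both strands of 300 bases, 250 before the start and 50 from it on, were searched.
Irgm1, chr11:48871420-48871479, minus strand: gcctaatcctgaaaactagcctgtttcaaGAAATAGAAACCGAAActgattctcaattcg
Irgm2, chr11:58214878-58214937, plus strand: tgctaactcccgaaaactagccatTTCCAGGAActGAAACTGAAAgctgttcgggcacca
Igtp, chr11:58199487-58199546, plus strand: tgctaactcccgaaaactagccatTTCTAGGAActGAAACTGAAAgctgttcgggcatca
Tgtp1, chr11:48992299-48992358, minus strand: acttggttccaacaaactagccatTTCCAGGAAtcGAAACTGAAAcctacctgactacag
Tgtp2, chr11:49064258-49064317, minus strand: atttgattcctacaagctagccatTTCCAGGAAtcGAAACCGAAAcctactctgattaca

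All 5 of the promoters printed hold the ISRE core, which occurs in 3.44% of the 32851 promoters in the table. Irgm1 has 2 overlapping copies, starting at positions -30 and -24, and no match to TTCNNNGAA in the window. In Irgm2, Igtp, Tgtp1 and Tgtp2 a TTCNNNGAA starts at positions -75, -45, -88 and -81, and the ISRE core follows it after 2 bases, starting at -64, -34, -77 and -70. TTCNNNGAA alone occurs in 8.3% of promoters and both motifs anywhere in the window in 0.454%. The joined form, a GAS core and an ISRE core with 2 bases between them, a pattern chosen after these sequences were seen, occurs in 5 promoters of the table (0.0152%): those of Igtp, Irgm2, Tgtp1, Tgtp2 and Gm12185, all IRG genes. These promoters are related copies and not independent examples. The windows of Irgm2 and Igtp have 58 of 60 bases in common, those of Tgtp1 and Tgtp2 have 46, and that of Irgm1 has 29 to 35 in common with the other 4. The RefSeq start used for Irgm2 lies inside the gene model of the count table, which begins 5′ of it within Igtp. Of the other IRG genes in the table of promoters, Ifi47, Irgq, Gm5431 and 9930111J21Rik2 hold neither motif. A match is a description of letters, not a measured binding site.

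The genes lie in 3 clusters, with positions on GRCm38 from the deposited table. Irgm1 (chr11:48861968-48871683, minus strand), Tgtp1 (chr11:48985327-48994172, minus) and Tgtp2 (chr11:49057194-49064206, minus) share a stretch of chromosome 11. Igtp (chr11:58199556-58207591, plus) and Irgm2 (chr11:58199618-58222782, plus) overlap in a further cluster of that chromosome. Iigp1 (chr18:60376029-60392627, plus) is on chromosome 18. Copies this close limit what reads can tell apart. Of the stretches of 50 bases in Tgtp1 transcripts 79.4% also occur in Tgtp2, and 89.8% of those in Tgtp2 occur in Tgtp1, so how the counts split between these 2 genes is uncertain. For Igtp and Irgm2 the shares are 11.8% and 6.79%, and 162 exonic bases of the 2 genes coincide by position. For Iigp1 the share in any other IRG gene is 2.85%, and for Irgm1 it is 0.

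The 12 libraries of the ICI and RI groups have counts, with totals of 17289313 to 23471917. Stk11, the target, was at 152 to 171 CPM in WT ICI, at 140 to 147 in WT RI, at 115 to 152 in KD ICI and at 111 to 139 in KD RI. Its change in KD did not pass the threshold with either treatment (-0.31±0.11 on the log2 scale for ICI, adjusted p = 0.0556, and -0.18±0.12 for RI, adjusted p = 0.304). Levels below are CPM (counts scaled to a common library size, with TMM), and tests are edgeR's quasi-likelihood test over all 16617 genes with Benjamini-Hochberg adjustment and a threshold of 0.05, given as log2 fold change ± standard error. The labels do not say that libraries are separate animals, so p-values measure the spread between these samples, which may be technical. KD ICI 3 has CON in its description, whereas KD RI 1 and 3, named alike, have ICI+RT. What CON means is not said, and a tumour without treatment is a possible reading. The library was kept in its labelled group, and results that rest on it are given without it. The descriptions of KD ICI 1 and KD ICI 2 both begin with H80, so these libraries may share a source, which the labels do not say. With their counts summed into 1 library, all 6 members were still called for KD against WT under both treatments.

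Under ICI all 6 members fell in KD relative to WT. The 3 regulatory genes were lower by 2.78-fold to 5.42-fold and the 3 effectors by 10.04-fold to 13.7-fold. All 6 passed the test (6 of 6, while 14.9% of all genes tested were called lower). In all 6 every KD library was below every WT library, which held in the lower direction for 21.7% of genes. Tgtp1 and Tgtp2 passed the filter on low counts through the WT groups, where they are high. They could therefore hardly be called here other than lower. Irgm1, Irgm2, Igtp and Iigp1 do not have this limit.

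Irgm1, which directs the family's regulation on lysosomes and the Golgi, was at 46.2, 48.4 and 47.3 CPM in replicates 1 to 3 of WT ICI and at 14.1, 16.6 and 20.4 CPM in KD ICI. Its WT libraries were nearly equal and its KD libraries all lay well below them. It fell by 1.47±0.12 on the log2 scale (adjusted p = 2.69e-05). Irgm2, the second regulatory gene, was at 27.4, 32.6 and 22.7 CPM in WT ICI and 3.13, 4.34 and 7.69 CPM in KD ICI. KD ICI 3 was the highest of its group and still under the lowest WT library. Irgm2 fell by 2.44±0.25 (adjusted p = 7.44e-05). Igtp, the regulatory member found on the endoplasmic reticulum and lipid droplets, was at 50.8, 52.1 and 45.3 CPM in WT ICI and 14.2, 12.8 and 17.2 CPM in KD ICI. It fell by 1.74±0.14 (adjusted p = 2.24e-05), with groups far apart.

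Iigp1, an effector that binds the membrane of the parasite vacuole, was at 43.6, 35.6 and 39.3 CPM in WT ICI and 1.22, 3.26 and 7.07 CPM in KD ICI. The KD libraries spread widely among themselves, and KD ICI 3 was the highest. Iigp1 fell by 3.33±0.40 (adjusted p = 0.000247). Tgtp1 was at 3.98, 3.95 and 4.50 CPM in WT ICI and 0, 0.317 and 0.520 CPM in KD ICI. The KD values rest on 0, 7 and 10 counts. It fell by 3.78±0.47 (adjusted p = 0.000209). Tgtp2, its near-identical partner, was at 12.9, 8.98 and 9.71 CPM in WT ICI and 0.340, 0.181 and 1.77 CPM in KD ICI, from 5, 4 and 34 counts. It fell by 3.76±0.54 (adjusted p = 0.000541), with KD ICI 3 again the highest of its group. Without KD ICI 3 the change was -1.62 for Irgm1, -2.87 for Irgm2, -1.87 for Igtp, -4.06 for Iigp1, -4.45 for Tgtp1 and -5.38 for Tgtp2, all 6 called.

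Under RI the 6 genes stood further apart between KD and WT. All 6 passed again (6 of 6, while 12.1% of genes tested were called lower), with the same limit for Tgtp1 and Tgtp2. The WT RI values were 116, 114 and 107 CPM for Irgm1, 57.6, 59.5 and 60.5 for Irgm2, and 115, 110 and 108 for Igtp. The same genes in KD RI were at 15.4, 13.7 and 13.4, at 3.93, 3.43 and 3.27, and at 9.81, 8.06 and 11.3 CPM. No KD library came near a WT library in any of the 3 regulatory genes. KD was lower by 2.99±0.13 for Irgm1 (adjusted p = 6.41e-08), 4.06±0.27 for Irgm2 (1.95e-06) and 3.51±0.15 for Igtp (6.26e-08). By p-value Igtp and Irgm1 stood at places 2 and 3 of all 16617 genes in this comparison.

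The effectors were again the further apart. Iigp1 was at 107, 125 and 89.6 CPM in WT RI and 1.77, 2.39 and 2.03 in KD RI, a fall of 5.69±0.44 (adjusted p = 1.04e-05), or 51.8-fold. Tgtp1 was at 16.0, 15.2 and 12.8 CPM in WT RI, while the 3 KD RI libraries held 2, 1 and 2 counts of it. The fitted change of Tgtp1 was -7.28±0.56 (adjusted p = 4.73e-06), a value that depends on very few KD counts. Tgtp2 was at 26.0, 27.8 and 19.7 CPM in WT RI and 0.443, 0.312 and 0.571 in KD RI, a fall of 5.77±0.59 (adjusted p = 4.62e-05), or 54.6-fold. For all 6 genes the highest KD library was below the lowest WT library, as for 22.7% of genes tested. The median change of the 6 was -2.88 under ICI and -4.88 under RI, while the median of all genes tested was 0.0019 and 0.0236. The medians of the 6 include Tgtp1 and Tgtp2, which passed the filter through the WT groups.

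**Figure D1:**
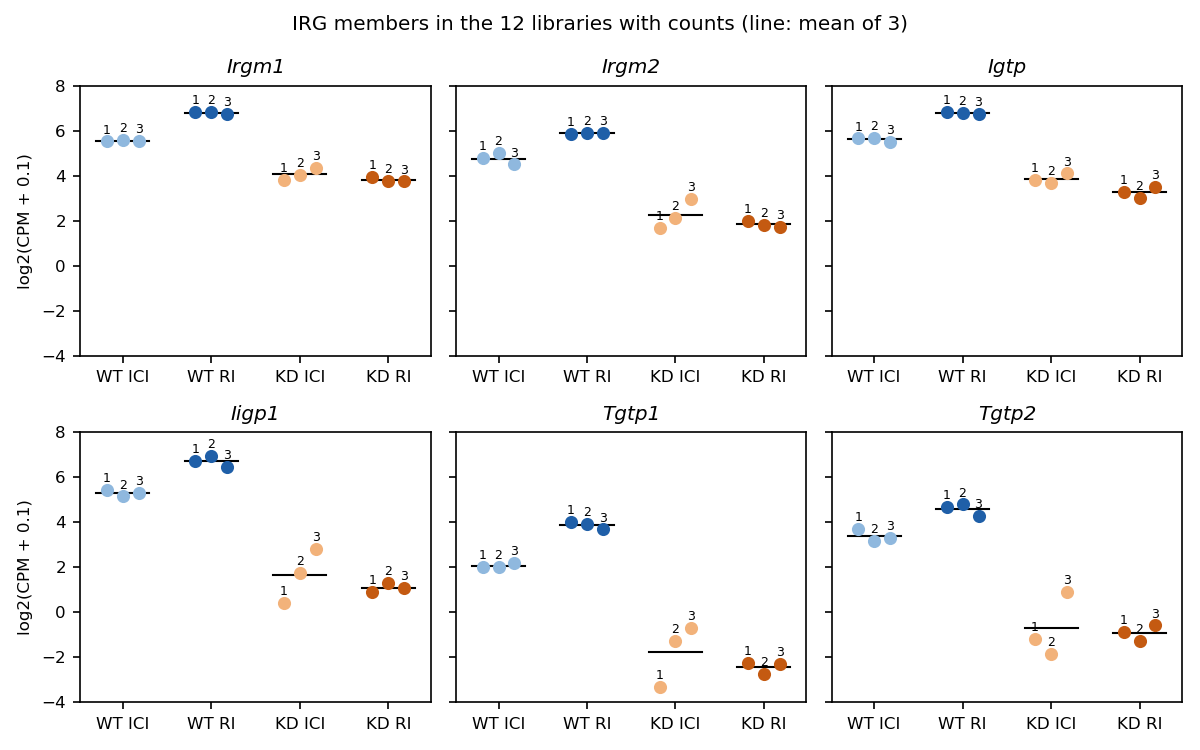
Each panel plots 1 IRG gene as log2(CPM + 0.1) in the 12 libraries with counts, with the replicate number above each point and a line at the mean of 3. In all 6 panels the KD libraries lie below the WT libraries, WT RI lies above WT ICI, and KD ICI 3 is the highest KD ICI library.

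In WT tumours, adding radiation to the inhibitor came with higher levels of the family. For all 6 genes every WT RI library was above every WT ICI library, as for 13% of genes tested, and 2 of the 6 passed the test, while 0.156% of genes were called higher. Irgm1 rose by 1.25±0.12 (2.38-fold, adjusted p = 0.0027), the smallest p of all 16617 genes. Igtp rose by 1.17±0.13 (2.24-fold, adjusted p = 0.00516), at place 3. The changes of the other 4 did not pass, although their sizes were alike: 1.10±0.23 for Irgm2 (adjusted p = 0.0875), 1.44±0.35 for Iigp1 (0.137), 1.82±0.37 for Tgtp1 (0.0683) and 1.22±0.44 for Tgtp2 (0.313). Their WT libraries alone did not spread widely. Tgtp2, for example, was at 8.98 to 12.9 CPM in WT ICI and at 19.7 to 27.8 CPM in WT RI, but the test takes its spread from all 4 groups. Fitted on the WT libraries alone, or without KD ICI 3, all 6 were called. Those fits called 828 and 350 of all genes, against 47 in the fit of all 12 libraries. Irgm1 was called under every setting tried, while Igtp lost its call without WT RI 1 (adjusted p = 0.0576) or WT RI 2 (adjusted p = 0.0607). WT RI libraries are all named JIAN in their descriptions and WT ICI 1 and 3 are named TUI. Within the JIAN libraries alone, where WT ICI, KD ICI and KD RI each keep 1 library and the spread comes from WT RI alone, the 6 changes were 0.86 to 1.89 and all 6 were called.

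In KD tumours 0 of the 6 genes passed edgeR's quasi-likelihood test for RI against ICI, where 0.0843% of genes were called lower and 0 higher. An unadjusted p below 0.05 was found for 2 members, Igtp (0.000942) and Tgtp1 (0.039), and for 14.8% of genes, and DESeq2 called 1 member, Igtp, and limma 0. Igtp was at 14.2, 12.8 and 17.2 CPM in KD ICI and 9.81, 8.06 and 11.3 CPM in KD RI, so its groups did not overlap (7.49% of genes had all RI libraries lower), and its change was -0.60±0.14 (adjusted p = 0.11). Without KD ICI 3 it was -0.47 and passed (adjusted p = 0.0244). In that fit 3324 of all genes were called, against 14 in the edgeR fit of all 12 libraries. For the other 5 the groups overlapped. The changes were -0.27±0.12 for Irgm1 (adjusted p = 0.348), -0.52±0.26 for Irgm2 (0.377), -0.92±0.44 for Iigp1 (0.36), -1.68±0.73 for Tgtp1 (0.314) and -0.79±0.66 for Tgtp2 (0.595). Without KD ICI 3 those of Irgm1, Irgm2 and Iigp1 came to -0.11, -0.09 and -0.19, and that of Tgtp2 turned to 0.83 (adjusted p = 0.254). Tgtp1, with 0 to 10 counts in a KD library, and Tgtp2, with 4 to 34, passed the filter on low counts through the WT groups, and on the KD groups alone the other 4 members could be tested.

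The difference between the treatment effects in KD and WT was tested as an interaction. It passed for Igtp (-1.77±0.19, adjusted p = 0.00568) and Irgm1 (-1.51±0.17, adjusted p = 0.00568), which had the smallest p-values of all genes, at places 1 and 2, while 0.307% of genes were called lower. Both calls held under every setting tried, with adjusted p of at most 0.0318 for Igtp and 0.0494 for Irgm1. The differences of the other 4 did not pass: -1.62±0.35 for Irgm2 (adjusted p = 0.075), -2.37±0.56 for Iigp1 (0.107), -3.50±0.81 for Tgtp1 (0.0872) and -2.01±0.79 for Tgtp2 (0.289). Without KD ICI 3, Irgm2 (-1.19, adjusted p = 0.00922), Iigp1 (-1.63, 0.0269) and Tgtp1 (-2.83, 0.0431) passed as well, while Tgtp2 was at -0.39 (0.701). In that fit 1902 of all genes were called, against 61 in the fit of all 12 libraries. Comparisons that share a group, such as KD against WT and RI against ICI, share libraries and are not independent.

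**Figure D2:**
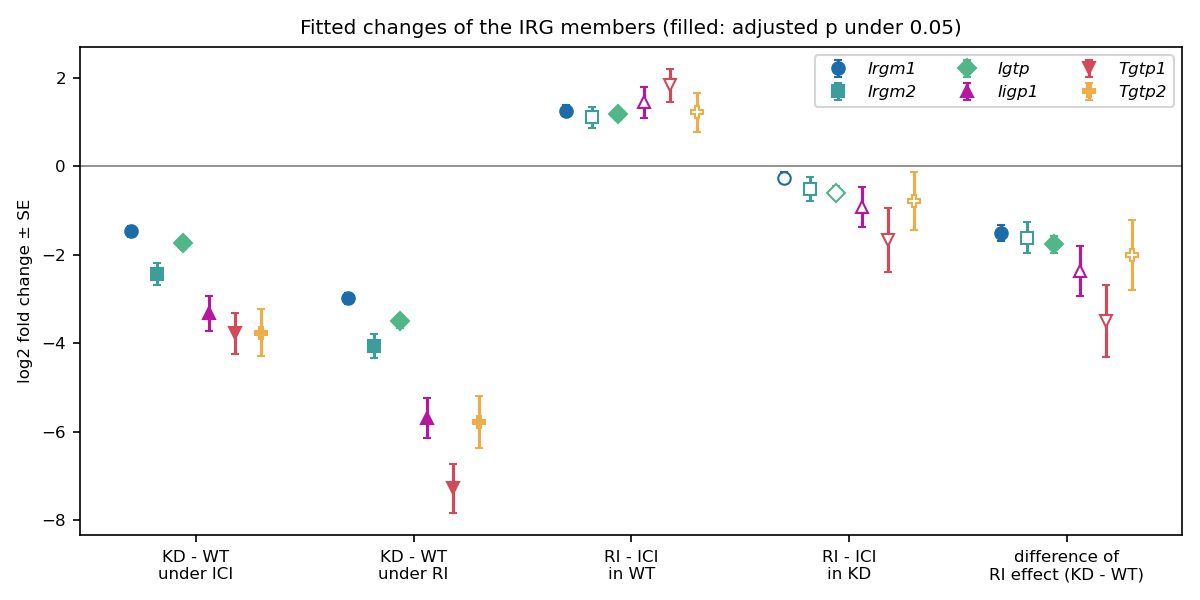
The plot gives the fitted log2 fold change of each of the 6 IRG genes, with standard errors as bars, for the 5 comparisons, and filled symbols are past an adjusted p of 0.05. All 6 are filled and below 0 for KD against WT under ICI and under RI, Irgm1 and Igtp are filled above 0 for RI against ICI in WT, none is filled in KD, and Irgm1 and Igtp are filled below 0 for the difference.

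Between KD and WT the regulatory and the effector genes moved by different amounts. Under ICI the KD changes of Irgm1, Irgm2 and Igtp were -1.47, -2.44 and -1.74, and those of Iigp1, Tgtp1 and Tgtp2 were -3.33, -3.78 and -3.76. Under RI they were -2.99, -4.06 and -3.51 against -5.69, -7.28 and -5.77, so in neither comparison did the regulatory genes reach the range of the effectors. This is a description of 6 related genes, given without a test. Tgtp1 and Tgtp2 are near-identical copies with few counts in KD, and both passed the filter through the WT groups. The sizes of their changes are limited by this, and Iigp1 is the only effector without that limit. For RI against ICI in WT the ranges overlapped, with 1.25 for the regulatory Irgm1 and 1.22 for the effector Tgtp2. Over the 12 libraries the closest pair in profile was Irgm1 and Igtp, whose centred log2 CPM differed by a root mean square of 0.275, and the next was Iigp1 and Tgtp1 at 0.372. Irgm1 and Tgtp1 were the furthest apart, at 1.53.

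Levels of different genes can be compared per length, as FPKM, which divides fragment counts by transcript length and by library size. In WT ICI Iigp1 was the highest at 13.4±1.30 FPKM, then Igtp at 10.2±0.766, Irgm1 at 6.15±0.171, Tgtp2 at 3.51±0.673, Irgm2 at 2.80±0.514 and Tgtp1 at 1.15±0.0842 (SD, n = 3). The ranges of Tgtp2 and Irgm2 overlapped, and no other neighbours in the order did. WT RI had the same order at higher FPKM, from 35.7±6.36 for Iigp1 to 4.00±0.520 for Tgtp1, with no overlap between neighbours. In KD ICI and KD RI Igtp came first and Irgm1 second. Igtp was at 2.65±0.494 and 1.87±0.326 FPKM, Irgm1 at 1.92±0.463 and 1.71±0.153, and Iigp1, next in order, at 1.16±0.932 and 0.651±0.0884. In KD ICI all neighbours in the order overlapped, and in KD RI Igtp and Irgm1 did. In KD ICI 1 and 2 alone Igtp (2.36 and 2.37 FPKM), Irgm1 (1.46 and 1.92) and Iigp1 (0.334 and 0.987) did not overlap. Those overlaps in KD ICI thus rest on KD ICI 3.

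The share of the family's FPKM that came from the 3 effectors was 44.3% to 51.2% in WT ICI libraries and 49.0% to 56.2% in WT RI. It was 9.42% to 30.98% in KD ICI, with KD ICI 3 the highest, and 14.99% to 19.7% in KD RI. Every KD library thus had a smaller effector share than every WT library. The family's summed FPKM was 35.7 to 39.4 in WT ICI, 79.5 to 98.2 in WT RI, 4.50 to 9.16 in KD ICI and 4.33 to 4.94 in KD RI.

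The KD tumours with radiation alone have FPKM only, in a table normalized separately, so their levels are set beside the others without a test. RT libraries 1, 4 and 5 had Igtp at 5.72, 6.13 and 6.76 FPKM, Irgm1 at 3.35, 3.19 and 3.89, and Irgm2 at 2.59, 2.12 and 2.54. Iigp1 was at 1.43, 0.654 and 1.90 FPKM, Tgtp2 at 1.57, 1.03 and 1.39, and Tgtp1 at 0.592, 0.324 and 0.840. The 3 regulatory genes thus came first, and the range of Iigp1 overlapped those of Tgtp2 and Tgtp1, which did not overlap each other. The family's sum was 13.5 to 17.3 FPKM, a value between the KD and the WT libraries of the other table. The scales of the tables differ: over 32807 genes named once in both, FPKM summed to 214840 to 230080 in the 12 libraries and to 296110 to 311630 in RT. Brought to 1 sum over those genes, the RT means were 4.91 for Igtp, 2.75 for Irgm1, 1.91 for Irgm2, 1.05 for Tgtp2, 1.04 for Iigp1 and 0.460 for Tgtp1. The effector share, which does not depend on a library's scale, was 14.9% to 23.8% in RT, below every WT library. It was 9.42% and 19.3% in KD ICI 1 and 2 and 30.98% in KD ICI 3. RT 1 and 5, at 23.6% and 23.8%, thus lay within the KD ICI range only through KD ICI 3. Whether both FPKM tables used the same transcript lengths is not known.

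**Figure D3:**
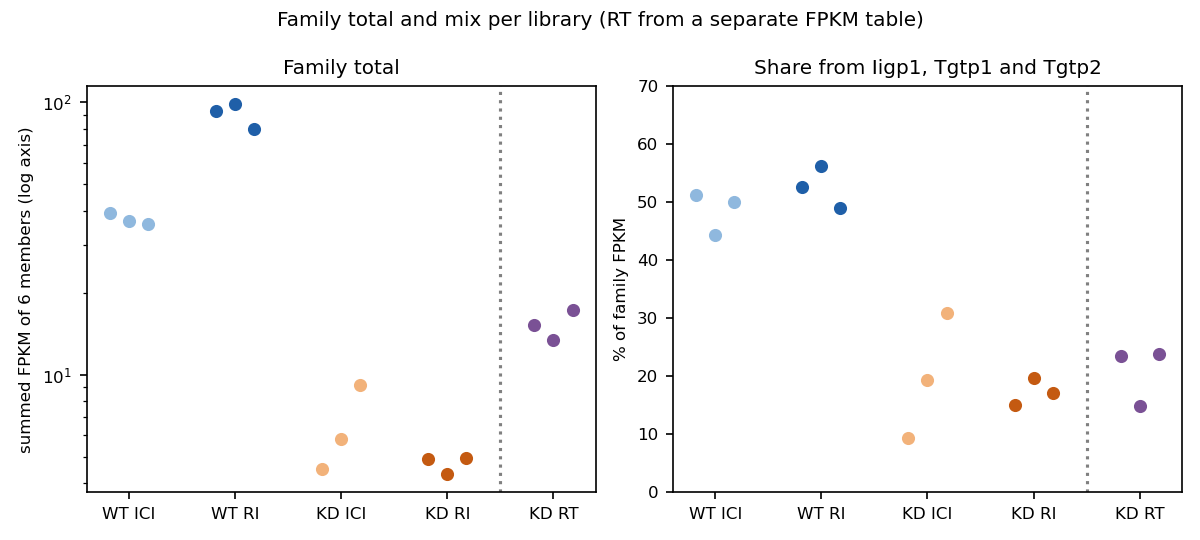
Points are libraries of the 5 groups, with the summed FPKM of the 6 IRG genes on a log axis at left and the percentage of that sum from Iigp1, Tgtp1 and Tgtp2 at right; RT, right of the dotted line, is from a separate table. KD libraries had an effector share of 9.42% to 30.98% and WT libraries 44.3% to 56.2%.

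Most other IRG genes tested were also lower in KD. Of 16 further symbols 11 were in the count table and 10 were tested. Of these 7 were called lower in KD under ICI and 9 under RI, where 14.9% and 12.1% of all genes tested were called lower. For RI against ICI 0 were called in either tumour type, where 0.283% of genes were called in WT and 0.0843% in KD. For the difference 1, Gm12250, was called (-3.23±0.59, adjusted p = 0.0442), where 0.307% of genes were called lower. The 0 in WT depends on the libraries in the fit, with 5 called without KD ICI 3 and 4 by DESeq2. Of all genes these fits called 350 and 403. In KD 1 was called without KD ICI 3 and 2 by DESeq2, beside 3324 and 474 of all genes. Ifi47, another interferon-induced member of the family, was at 18.7 to 22.98 CPM in WT ICI, at 34.6 to 41.2 in WT RI, 1.97 to 4.68 in KD ICI and 1.09 to 1.94 in KD RI. It fell by 2.76 under ICI (adjusted p = 5.59e-05) and by 4.68 under RI (1.76e-06). Gm12185, which has 223 exonic bases in common with Tgtp1 by position, was at -2.46 (adjusted p = 0.00286) and -6.50 (1.41e-05). In KD RI Gm12185 reached 0.0173 FPKM at most, 9930111J21Rik1 0.0224, F830016B08Rik 0.0465 and Gm4841 0.0721. Genes this low in KD passed the filter on low counts through the WT groups. They could hardly be called in KD other than lower, and the sizes of their changes rest on very few KD counts. Irgq, a divergent relative, did not pass in any comparison. It was at 24.6 to 28.01 CPM in WT ICI, at 20.9 to 25.5 in WT RI, 22.0 to 36.8 in KD ICI and 21.6 to 27.3 in KD RI, and its KD changes were 0.19±0.17 (adjusted p = 0.412) and 0.07±0.17 (0.832). Irgq was called higher in KD under ICI without KD ICI 3 (0.39, adjusted p = 0.0234). Irgc1 had 5 counts or fewer in each library and was not tested.

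Of 14 tested genes outside the family within 100000 bases of a member, 2 were called lower in KD under ICI and 2 higher, with a median change of 0.04. Under RI 3 were called lower and 0 higher, with a median of 0.01. Of all genes tested 14.9% were called lower and 16.1% higher under ICI, and 12.1% and 9.18% under RI. The 3 were BC023105 (-5.04±0.97, adjusted p = 0.00289), Olfr56 (-4.40±0.68, 0.000643) and Psme2b (-1.59±0.19, 9.81e-05). Olfr56 has 111 exonic bases in common with Ifi47 by position and Psme2b 41 with 9930111J21Rik1, so their counts cannot be fully told apart from those of IRG genes.

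**Figure D4:**
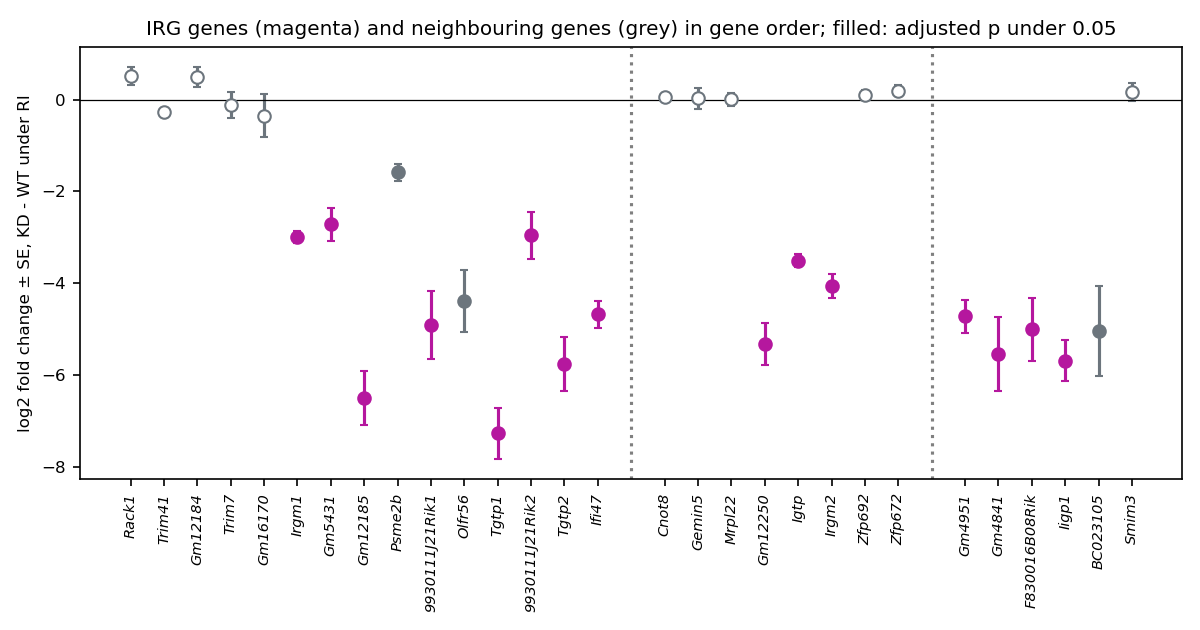
The plot gives the log2 fold change with standard error of KD against WT under RI for IRG genes (magenta) and other genes within 100000 bases of a member (grey). Genes are in order in the 3 clusters, and filled symbols are past an adjusted p of 0.05. All IRG genes shown are filled and below -2, and of the 14 neighbours 3 are filled.

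By profile over the 12 libraries, the genes outside the 6 most like the members' mean were Ifi47 (root mean square difference 0.261 in log2), Gbp7 (0.279), Gm4951 (0.296), Gbp3 (0.303), Gbp5 (0.365) and Cxcl11 (0.393), of 16611 genes with a median of 2.00. Ifi47 and Gm4951 are IRG genes, Gbp3, Gbp5 and Gbp7 are guanylate-binding proteins, a further family of interferon-induced GTPases, and Cxcl11 is a chemokine gene that the deposited table lists as a polymorphic pseudogene. Members themselves lay at 0.302 (Irgm2) to 0.807 (Irgm1) from their own mean.

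The ligand side of the pathway was close to the limit of detection. Ifng, the gene of interferon-gamma, had 10, 4 and 8 counts in WT ICI, 18, 20 and 7 in WT RI, 0, 0 and 1 in KD ICI and 0, 0 and 1 in KD RI. Every WT library had more Ifng counts than any KD library, but the gene did not pass the filter and was not tested, nor were the other 11 interferon genes of the list. Among 5 receptor genes 1 was called lower in KD under ICI and 3 under RI, beside 14.9% and 12.1% of all genes. Ifngr1, which binds the ligand, changed by -0.34 under ICI (adjusted p = 0.0389) and -0.39 under RI (0.0278), calls that were lost without any of several single libraries. Ifngr2, the signalling chain, was at -0.21 under ICI (adjusted p = 0.217) and -0.66±0.13 under RI (0.00258). Jak1 and Jak2, the receptor's kinases, did not pass, with changes of 0.09 and 0.03 under ICI and 0.06 and 0.07 under RI.

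Of the transcription factors, Irf1 fell in KD under both treatments. Irf1 was at 88.5, 84.7 and 82.3 CPM in WT ICI, 162, 178 and 142 CPM in WT RI, 36.6, 33.4 and 50.6 in KD ICI and 32.0, 26.3 and 33.0 in KD RI. It fell in KD by 1.08±0.15 (adjusted p = 0.000394) and 2.40±0.16 (1.76e-06), rose with radiation in WT by 0.92±0.15 (0.026) and was at -0.40±0.15 in KD (0.264). The difference passed for Irf1 (-1.32±0.21, adjusted p = 0.0252). Both radiation calls of Irf1 were lost on leaving out any 1 of the 6 WT libraries. Irf8, a factor of myeloid cells, was at -0.40 under ICI (adjusted p = 0.144) and -1.39±0.20 under RI (0.00042).

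**Figure D5:**
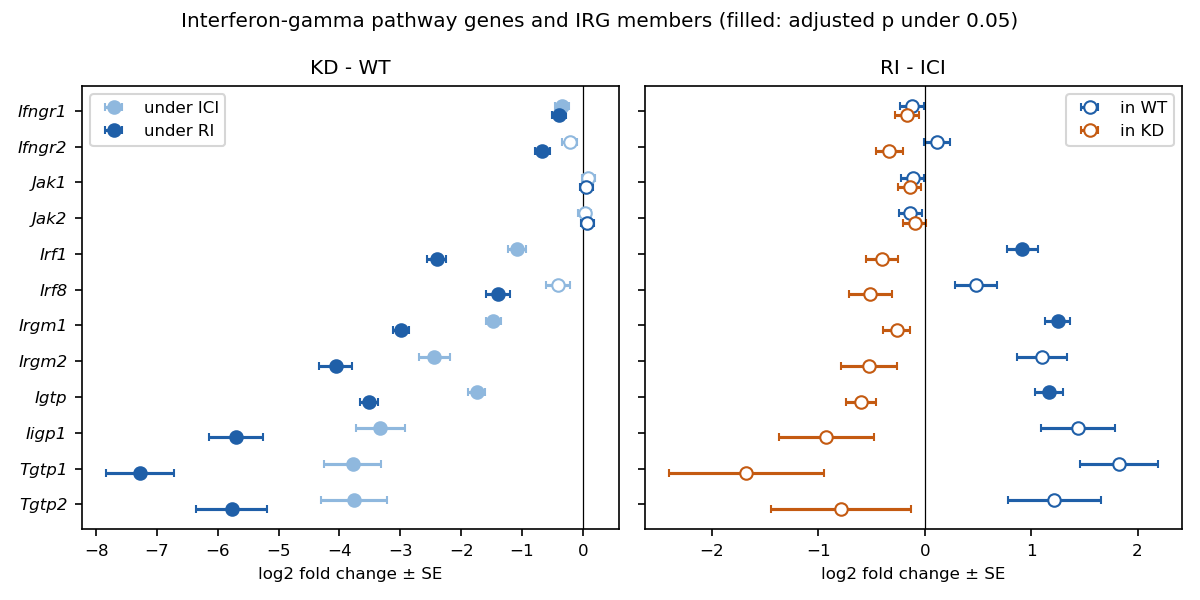
The panels give log2 fold changes with standard errors for 6 genes of the interferon-gamma pathway and the 6 IRG genes, for KD against WT at left and RI against ICI at right, with filled symbols past an adjusted p of 0.05. Jak1 and Jak2 lie near 0 in both panels, while Irf1 and the 6 members lie below 0 for KD against WT under both treatments.

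Of 20 interferon-gamma targets outside the family 18 were called lower in KD under ICI (median -2.33) and 20 under RI (median -3.98). With radiation in WT 5 rose (Gbp7, Gbp3, Psmb9, Tap1 and Cd274), where 0.156% of all genes were called higher. That count of 5 came to 0 on leaving out any 1 of the WT libraries. Of 20 type I interferon targets 15 were lower and 1, Oasl1, higher under ICI (median -1.06), where 16.1% of genes were called higher, and 18 lower under RI (median -1.95). Of 15 genes listed as autophagy and ubiquitin partners of the IRGs at the vacuole, 3 were lower (Map1lc3a, Trim21 and Atg3) and 3 higher (Atg16l1, Traf6 and Sqstm1) under ICI. Of all genes tested 14.9% were called lower and 16.1% higher there. Under RI 2 were lower (Map1lc3a and Trim21) and 1 higher (Atg16l1), where 12.1% of genes were called lower and 9.18% higher. Of 7 negative regulators of interferon signalling 4 were lower (Usp18, Ptpn6, Cish and Socs1) and 1, Socs3, higher under ICI (median -0.97), and 5 were lower (the same 4 and Ptpn2) and 0 higher under RI (median -1.29). Socs1 and Socs3 are feedback inhibitors of cytokine receptors and their kinases. Socs1 fell by 1.08 under ICI (adjusted p = 0.000307) and by 1.32 under RI (5.62e-05). Socs3 rose by 1.15 under ICI (adjusted p = 0.000333) and was at -0.21 under RI (0.369).

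Markers of immune cells moved between KD and WT as well, those of T cells, cytotoxic cells and macrophages mostly down and those of neutrophils up under ICI. Of all genes tested 14.9% were called lower in KD and 16.1% higher under ICI, and 12.1% and 9.18% under RI. All 9 T cell markers were lower in KD under both treatments, and their summed level was 25.1 to 35.2 CPM in WT ICI, 29.03 to 45.1 in WT RI, 2.18 to 4.21 in KD ICI and 1.27 to 3.74 in KD RI. Of 9 cytotoxic and NK markers 6 were lower and 1, Eomes, higher under ICI, and 7 were lower and 0 higher under RI. Their sums were 53.3 to 76.6, 81.96 to 160, 18.5 to 27.9 and 12.02 to 18.8 CPM in the same order of groups. Klrb1c, with 0 to 7 counts in KD libraries, and Tbx21, with 0 to 4, passed the filter through the WT groups. They could hardly be called in KD other than lower. The 9 T cell markers summed to at most 4.21 CPM in KD, so those with so few counts share this limit. Of 9 macrophage markers 7 and 8 were lower, with sums of 936 to 1092, 701 to 830, 350 to 557 and 258 to 341 CPM. Of 6 dendritic cell markers tested 4 were lower under ICI (median -1.48) and 2 under RI (median 0.00031), while Flt3 was higher under both (2.97 and 4.202). Of 7 neutrophil markers 6 were higher in KD under ICI and 0 passed under RI, and their summed level was 35.9 to 75.2 CPM in WT ICI, 138 to 146 in WT RI, 166 to 690 in KD ICI and 80.4 to 262 in KD RI. With radiation in WT, where Irgm1 and Igtp rose, 0 T cell, 0 cytotoxic and 0 macrophage markers passed, beside 47 of all genes (0.283%). By DESeq2 0 T cell, 1 cytotoxic and 2 macrophage markers did, beside 403 of all genes. The summed T cell level overlapped between WT ICI and WT RI. The cytotoxic sum was higher in every WT RI library, and the macrophage sum was lower in every WT RI library. Of single genes tested, 13% had every WT RI library above WT ICI and 13.5% had every one below. The neutrophil sum was higher in every WT RI library than in any WT ICI library, and the 7 markers changed there by 0.77 to 1.64 with a median of 1.21, of which 0 passed. No marker of these lists was at 0 in a whole group. The part of these cells in the members' levels was not tested.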

How the data were processed

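RNA-seq of 15 tumour libraries was used. HISAT2 and the builds GRCm38 and mm10 are listed, per the submitters' processing notes. How reads were counted, with which annotation and whether by strand, is stated in no source used here. Counts and FPKM for 53465 genes in 12 libraries were deposited by the authors in 1 table, and FPKM alone for the 3 RT libraries in another of 34745 rows. Depth is the total count per library. For RT it is unknown. Library columns were matched to samples by the labels' descriptions.

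TMM scaling gave factors from 0.852 to 1.00 for KD libraries and from 1.02 to 1.07 for WT, and filterByExpr (at least 10 counts, 15 in total) chose the genes tested. All 12 libraries entered 1 robust quasi-likelihood fit in edgeR 4.0.16 (R 4.3.3) with a mean for each group, and 5 two-sided contrasts were taken from it. The standard error is the fold change divided by the square root of F. The common biological coefficient of variation, a measure of replicate spread, was 0.209. The fit was tested on simulated counts with known changes. Of genes changed 2-fold it recovered 61.2% for RI against ICI in WT, 58.2% in KD and 13.4% for the difference. Of genes changed 4-fold it recovered 72.7%, 78.8% and 68.2%. A change that did not pass is thus not shown to be absent. Alternatives used DESeq2 1.42.0, and limma 3.58.1 on log2(FPKM + 0.1) of the deposited FPKM. Likeness of profiles used log2 CPM with a prior count of 2. Promoters came from RefSeq, and transcript stretches from GENCODE M21.

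The members and gene lists were chosen with earlier results of these data known. Named were the 6 members, all other IRG genes in the table, Stk11, 8 pathway genes (1 of them is not reported here), up to 3 genes of smallest p per list, direction and comparison, and the 6 genes of most like profile. The neighbours, other genes given because a list had 5 or fewer called, and Socs1 and Socs3 were named after their values were seen. Protein sequences of the members were not used here.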

Additional observations from a re-analysis of the deposited data

Results flagged for a closer look

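The effect of adding radiation to the inhibitor differed between KD and WT tumours, by the interaction test of edgeR's quasi-likelihood fit with Benjamini-Hochberg adjustment, for 10 genes named in the text. In log2 the differences, KD minus WT, were -1.77 for Igtp (adjusted p = 0.00568) and -1.51 for Irgm1 (0.00568) among the members. They were -2.10 for Gbp7 (0.00568), -2.00 for Gbp3 (0.0246), -1.45 for Tap1 (0.00568), -1.60 for Cd274 (0.00852), -0.995 for Psmb9 (0.0369), -1.32 for Irf1 (0.0252), -1.36 for Socs3 (0.025) and -3.23 for Gm12250 (0.0442) outside them. In each the WT RI libraries were all above the WT ICI libraries. The calls of Gbp3, Irf1, Gm12250, Psmb9 and Socs3 were lost without any 1 of the 6 WT libraries or without KD RI 1 or KD RI 3, and that of Psmb9 also without KD ICI 1. Those of Igtp, Irgm1, Gbp7, Tap1 and Cd274 were not lost on leaving out any single library. Groups of 3 are too small for the check of single outlying libraries.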

How the results depend on the processing

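Over 23 alternatives, for KD against WT all 138 fits of the 6 members kept their direction and call under ICI, and so did all 138 under RI. These hold 6 fits on JIAN libraries alone, which set 1 library against 1 under ICI and 1 KD library against 3 under RI. Without them the number is 132 in each comparison. Without TMM, on library size alone, the median of all genes moved to -0.205 for KD against WT under ICI and to 0.12 for the difference. All genes called under ICI (5146) came to 3123 on the groups compared alone, 7975 without the SG793 libraries (KD ICI 3, KD RI 1 and KD RI 3) and 3570 to 7827 leaving out 1 library, the last without KD ICI 3.

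For RI against ICI in WT the 2 members called came to 4 with no filter, 5 by DESeq2, 6 on the groups compared alone, without SG793 or on JIAN libraries alone, and 1 to 6 leaving out 1 library. All genes (47) came to 77 with no filter, 12 with naming (the JIAN, TUI or SG793 of the description) as a term, 828, 428 and 183 on the same 3 subsets, 403 by DESeq2 and 2 to 350 leaving out 1 library. In KD the 0 members came to 1 with naming as a term and by DESeq2, and 0 to 1 leaving out 1 library; all genes (14) came to 9 on library size, 97 with no filter, 76 with naming as a term, 0 on the groups compared (4 members tested), 35 without SG793, 119 on JIAN, 474 by DESeq2, 6 by limma and 0 to 3324 leaving out 1 library, the last without KD ICI 3. For the difference the 2 members came to 4 with no filter, naming as a term or the H80 libraries (KD ICI 1 and 2) summed, 5 by DESeq2 and 2 to 5 leaving out 1 library; all genes (61) came to 31 on library size, 147 with no filter, 95 without SG793, 230 on JIAN, 574 by DESeq2, 18 by limma and 9 to 1902 leaving out 1 library. The causes were not tested.

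The title numbers do not pair the samples: deviations of same-numbered libraries correlated at -0.344 to 0.301, and the best match of a library had its own number in 3 of 12 cases. With a replicate block the members called were 6, 6, 2, 0 and 2 in the 5 comparisons, and all genes came to 23, 3 and 21 for RI against ICI in WT, in KD and the difference.

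For RI against ICI in KD signs turned for Irgm2 (0.14 on JIAN alone), Iigp1 (0.018 without SG793, 0.97 on JIAN), Tgtp1 (3.24 on JIAN) and Tgtp2 (0.33 without SG793, and -1.30 to 0.83 leaving out 1 library, the last without KD ICI 3), none called; the difference of Tgtp1 was 1.35 on JIAN. On JIAN alone RI against ICI in KD compares 1 library with 1, with 1 count of Tgtp1 against 0. Signs near 0 turned for Jak1, Jak2 and Irgq. On library size and by limma the KD change was -0.13 and -0.13 for Jak1, -0.18 and -0.18 for Jak2 and -0.021 and -0.047 for Irgq under ICI, and -0.014 and -0.014 for Jak1, -0.0034 and -0.0089 for Jak2 and -0.0081 and -0.0075 for Irgq under RI. Leaving out 1 library Jak2 was -0.028 to 0.058 under ICI and -0.046 to 0.157 under RI, and Irgq -0.028 to 0.145 under RI. Jak2 was -0.017 under ICI with no filter, and 0.0085, 0.10, 0.030 and 0.00063 for RI against ICI in KD on library size, without SG793, on JIAN and by limma.

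Rescaled RT levels moved to 2.75 for Irgm1, 1.91 for Irgm2, 4.91 for Igtp and 1.05 for Tgtp2. The split between Tgtp1 and Tgtp2, and their few KD counts, limit the fold changes of both.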
